A study of Mus musculus with 24 samples.

Results

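The comparison described here is that of control forebrain at 150 days of age with control forebrain at 80 days, made with 8 of the 24 arrays of the study, 4 mice and 4 arrays at each age. The control mice were non-transgenic littermates of TgCRND8 mice, a line that carries a human APP transgene with familial Alzheimer disease mutations under a prion promoter, and no control carried it. The labels give no strain, sex or treatment, and 1 array came from each mouse. The other 16 arrays were controls of day 70 and TgCRND8 mice of days 70, 80 and 150, again 4 mice per group. Forebrain was dissected away from olfactory bulb, cerebellum and brainstem, and its RNA was measured on Affymetrix mouse arrays as log2 signals. All 18193 genes with a named probe set were compared, each by its brightest probe set.

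Both ages lie after the mouse brain has reached its adult form. In the adult forebrain oligodendrocytes add myelin at a declining rate, and myelin membrane is built largely of lipids, with cholesterol that the brain makes itself because plasma cholesterol does not cross the blood-brain barrier. Cholesterol synthesis runs from acetyl-CoA through mevalonate and squalene, and its enzymes are switched on together by the transcription factor SREBP2 when sterols run low. New neurons are still added, at a rate that falls with age, and immediate early genes such as Fos, Arc and Npas4 report recent activity of neurons.

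Some arrays stood apart from their group. Xist, a non-coding RNA made from the silenced X chromosome in female cells, read 3.13 and 3.50 on day 80 arrays 1 and 4, against 9.71 and 9.36 on arrays 2 and 3 and 9.61 to 9.85 on the 4 day 150 arrays. The Y-linked gene Eif2s3y showed the opposite order, at 4.12 and 4.70 on day 80 arrays 1 and 4 and between 2.50 and 2.82 on the 6 others. By these 2 genes day 80 arrays 1 and 4 read as male and the 6 others as female, although the labels give no sex. Sex was thus unbalanced between the ages, with low Xist on 2 of 4 arrays at day 80 and 0 of 4 at day 150. The main fit held no term for it. Day 150 array 4 stood apart in cerebellar genes, which the dissection should have removed. Pcp2, a Purkinje cell gene, read 6.27 there against 3.91 to 4.17 on the other day 150 arrays, and Gabra6, a receptor subunit of cerebellar granule cells, read 4.58 against 2.76 to 3.12. For the myelin, cholesterol and newborn neuron lists, and for many of the named genes that moved by over 1.5 times, values are also given on the arrays with high Xist alone or without these 3 arrays. Pcp2 was higher at day 150 by 0.51 with all arrays and Gabra6 by 0.38, and without day 150 array 4 they differed by -0.05 and -0.03.

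**Figure D1:**
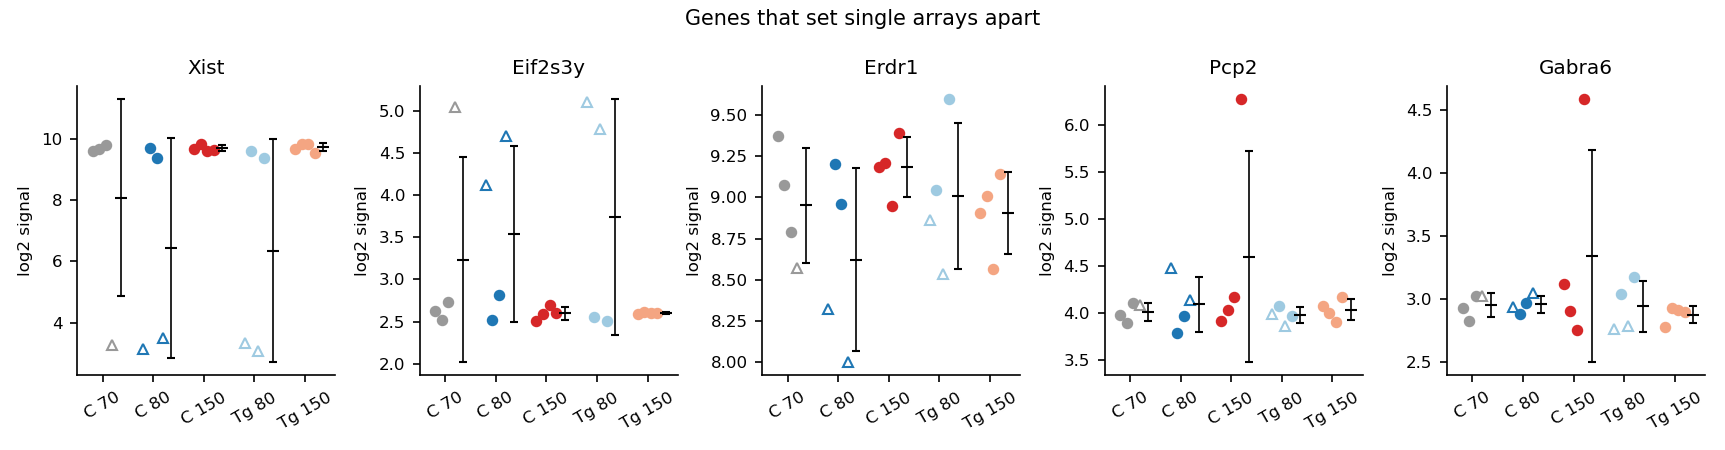
Log2 signal of 5 genes on each array of control (C) and TgCRND8 (Tg) mice by age in days. Circles are single arrays, open triangles the arrays with low Xist, and the black bar is the mean with 1 SD. Day 80 arrays 1 and 4 read 3.13 and 3.50 for Xist, and 1 day 150 control array reads 6.27 for Pcp2.

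Markers of forebrain cells were present on all 8 arrays. The glutamate transporter gene Slc17a7 read 7.57 to 8.10, the GABA enzyme gene Gad1 10.21 to 10.56, the striatal genes Ppp1r1b and Drd1 8.30 to 8.87 and 7.77 to 8.34, and the astrocyte gene Aldoc 11.93 to 12.11. Each of the 5 forebrain markers examined lay above the lower quartile of its array, 3.18 to 3.27, on every array. Ttr, a defining gene of choroid plexus, read 11.88 to 12.89 at day 80 and 12.68 to 13.05 at day 150, so that tissue was present in both groups. The Ttr difference was 0.39, and 0.67 on the arrays with high Xist alone. The other choroid plexus markers examined differed less, Kl by 0.17, Folr1 by 0.09, Clic6 by 0.16 and Kcne2 by -0.07. On the arrays with high Xist these were 0.38, 0.25, 0.33 and -0.0014. Kl and Kcne2 read below the lower quartile on 1 and 2 of the 8 arrays. Of 22 measured members of the choroid plexus list 14 were higher and 8 lower, with a median of 0.05. The signal at the 3′ end of the beta-actin control probe sets exceeded that at the 5′ end by 0.78 to 0.88 log2 at day 80 and by 0.75 to 0.83 at day 150. These ranges overlap, so the measure of RNA integrity did not separate the ages.

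No gene passed the test between the ages. By limma with Benjamini-Hochberg adjustment over all genes, 0 of 18193 genes (0%) had an adjusted p under 0.05, and 1 gene, Btg2, had an adjusted p under 0.10 (0.0055%). The second smallest adjusted p was 0.9996. At an unadjusted p under 0.05 there were 620 genes (3.41%), 290 higher at day 150 (1.59%) and 330 lower (1.81%). Without day 150 array 4 the unadjusted count was 967. The differences were split evenly around 0, with 49.6% of genes above it and 50.4% below. All 4 day 150 arrays lay above all 4 day 80 arrays for 205 genes (1.13%) and below them for 234 (1.29%).

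The precision of the comparison allows a statement on size. The median standard error of a difference was 0.0977 log2, and for 17636 genes (96.9%) the 95% confidence interval lay wholly within 0.5 log2 of 0 on both sides. Only 8 genes differed by 0.5 log2 or more. Higher at day 150 by this measure were Xist, Btg2, Npas4, Erdr1 and Pcp2, and lower were Eif2s3y, Klf10 and Uty. Of these 8, Xist, Eif2s3y and Uty follow the arrays with low Xist, Erdr1 read 8.32 and 8.0 on those same arrays against 8.96 to 9.20 on the other day 80 arrays, and Pcp2 follows day 150 array 4. That leaves Btg2, Npas4 and Klf10.

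**Figure D2:**
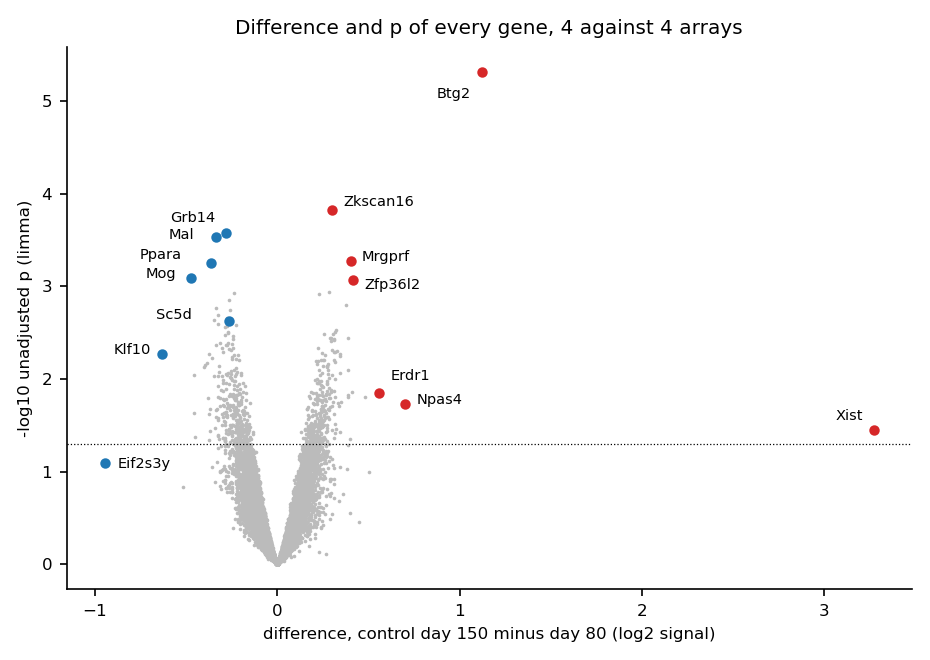
Each grey point is a gene, 18193 in all, placed by its difference between control day 150 and day 80 (log2) and by the negative log10 of its unadjusted limma p-value; the dotted line marks an unadjusted value of 0.05 and coloured points are named genes, red where higher and blue where lower at day 150. Btg2 stands alone at the top with a difference of 1.12, and Xist lies far to the right at 3.27.

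Btg2, an immediate early gene whose product restrains proliferation and promotes the shortening of mRNA tails, showed the difference with the smallest p. It read 6.44, 6.32, 6.51 and 7.21 on day 80 arrays 1 to 4 and 7.63, 7.69, 7.95 and 7.69 on day 150 arrays 1 to 4. Every day 150 array lay above every day 80 array, and day 80 array 4 was the closest to them. The mean was 6.62 ± 0.40 at day 80 and 7.74 ± 0.14 at day 150 (SD, n = 4 each), a difference of 1.12 log2 or 2.17-fold, with a standard error of 0.194 and a 95% confidence interval of 0.72 to 1.52. The adjusted p was 0.0875 by limma, which missed the threshold. A second, dimmer Btg2 probe set was higher at day 150 by 0.75 log2, again with no overlap (exact permutation p = 0.0286, two-sided, the smallest that 4 against 4 arrays allow). It was read on the same arrays in which Btg2 was picked, so its p is not a separate test.

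The Btg2 call turned on single arrays. Over 20 alternative settings the difference stayed between 0.94 and 1.34 log2, while the adjusted p by limma ran from 0.00443 to 0.88 and was under 0.05 in 3 settings. Without day 80 array 4 the difference was 1.32 (adjusted p = 0.00443 by limma), and without day 80 array 2 the adjusted p was 0.88. On the arrays with high Xist alone the difference was 1.33 (adjusted p = 0.0293 by limma). At day 70 the controls read 6.92, 7.70, 7.58 and 6.76, a range that overlaps both later ages. In TgCRND8 mice Btg2 was higher at day 150 by 0.46 (adjusted p = 0.675 by limma), and the steps of the 2 genotypes differed by -0.66 (adjusted p = 0.882 by limma).

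The promoter of Btg2 is shown because this gene leads the comparison and its family of rapid response genes is known for cyclic AMP response elements. The window runs from 250 bases before to 50 after the RefSeq start site, at chr1:134079106-134079405 of GRCm38.p6, minus strand. Capitals mark the element TGACGTCA and the CCAAT box, searched on both strands.
Btg2 promoter: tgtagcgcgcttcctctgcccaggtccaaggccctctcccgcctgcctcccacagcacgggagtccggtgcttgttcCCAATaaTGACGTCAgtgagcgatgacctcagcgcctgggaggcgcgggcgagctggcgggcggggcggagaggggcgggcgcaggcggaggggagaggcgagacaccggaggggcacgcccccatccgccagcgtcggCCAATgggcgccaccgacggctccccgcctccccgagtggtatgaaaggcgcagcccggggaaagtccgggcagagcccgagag
Counted from the start site, the element TGACGTCA begins at position -166 and CCAAT boxes begin at -173 and -34, and the motifs do not overlap. TGACGTCA, which reads the same on both strands, was found in 1.88% of 27025 RefSeq promoter windows of this length and in 2 of the 23 windows (8.7%) of the activity gene list. A match describes the letters only.

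The other activity genes had no common direction. Of 29 measured members 13 were higher and 16 lower at day 150, with a median difference of -0.04 log2, 2 members higher and 2 lower at an unadjusted p under 0.05 (1.59% and 1.81% of all genes). With 1 array left out the median ran from -0.11 to 0.06, with 11 to 19 members lower, so its sign depended on single arrays. In 1 member, Btg2, all day 150 arrays lay above all day 80 arrays (1.13% of all genes). Npas4, a transcription factor induced in neurons by calcium entry, read 5.15, 4.31, 4.45 and 4.76 at day 80 and 5.24, 5.83, 5.14 and 5.27 at day 150. Day 80 array 1 reached the lowest day 150 array, and the other 3 lay below. The difference was 0.70 (standard error 0.280, adjusted p = 0.9996 by limma), and 0.99 on the arrays with high Xist alone (adjusted p = 0.853 by limma). Fos and Arc were higher by 0.34 and 0.26, with unadjusted p of 0.208 and 0.287 by limma, and by 0.64 and 0.47 on the arrays with high Xist alone. Bdnf, the neurotrophin gene, was lower by 0.30, and Dusp6, a phosphatase that limits ERK signalling, by 0.26. Klf10, an early gene of TGF-beta signalling that is not in the list, was lower by 0.63 (standard error 0.208): it read 6.49, 6.47, 6.23 and 5.72 at day 80 and 5.73, 5.30, 5.55 and 5.80 at day 150. Day 80 array 4 fell within the day 150 range, so the groups overlapped. On the arrays with high Xist alone Klf10 was lower by 0.75 (adjusted p = 0.853 by limma).

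After Btg2, the genes of smallest p that were higher at day 150 had small differences. Zkscan16, a zinc finger gene, read 8.57, 8.63, 8.74 and 8.78 at day 80 and 9.03, 8.86, 8.96 and 9.08 at day 150, higher by 0.30 (standard error 0.068) with no overlap. Zfp36l2, which binds AU-rich elements and speeds mRNA decay, read 7.55, 7.68, 7.23 and 7.68 against 7.84, 8.05, 7.80 and 8.14, higher by 0.42 with no overlap. For Zfp36l2 2 dimmer probe sets differed by 0.10 and -0.03. Mrgprf, an orphan receptor gene, was higher by 0.41, Abca8a, a lipid transporter gene, by 0.38, and Wdr61, a subunit of the PAF1 elongation complex, by 0.23. The 3 other Wdr61 probe sets differed by 0.04, -0.06 and 0.15. Ercc2, the helicase of the repair and transcription factor TFIIH, was higher by 0.26, with overlap between the groups, and by 0.41 without the 3 arrays that stood apart. Gsdmd, the pore-forming gasdermin of inflammatory cell death, Rab11fip1, an effector of recycling endosomes, and 4930563E18Rik were higher by 0.28, 0.32 and 0.32, at signals of 3.10 to 3.87, near the lower quartile of the arrays, and Rab11fip1 by 0.50 without those 3 arrays. Dimmer probe sets of Ercc2 and Rab11fip1 differed by 0.03 and -0.04. None of these 9 genes passed.

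The 10 genes of smallest p that were lower at day 150 included 2 of myelin and 2 of one lipid pathway. Mal, a proteolipid of compact myelin, read 9.33, 9.23, 9.23 and 9.22 at day 80 and 9.0, 8.95, 8.88 and 8.83 at day 150. All day 150 arrays lay below all day 80 arrays, with a gap wider than the range within either group. The difference was -0.34 (standard error 0.080, unadjusted p = 0.000292, adjusted p = 0.9996 by limma), and a dimmer Mal probe set was lower by 0.19 (exact permutation p = 0.0857, two-sided). Mog, an immunoglobulin-like protein on the outermost myelin layer, read 6.90, 6.96, 7.11 and 6.88 against 6.57, 6.31, 6.57 and 6.50, a difference of -0.47 (standard error 0.125) with no overlap. Fam126a, whose loss causes a hypomyelinating disease in humans, was lower by 0.33, with overlap. Dhdds, a subunit of the enzyme that builds the chain of dolichol, and Dolk, which phosphorylates dolichol for protein glycosylation, were lower by 0.24 and 0.26. Dolk read 7.33, 7.33, 7.46 and 7.46 at day 80 and 7.15, 7.08, 7.10 and 7.21 at day 150, with no overlap, whereas 2 dimmer Dhdds probe sets differed by -0.01 and -0.06. The others were Grb14, an adaptor that dampens insulin receptor signalling (-0.28), Ppara, the fatty acid receptor that drives fat oxidation (-0.36), Lyar, a nucleolar growth gene (-0.27), Cfb, complement factor B (-0.32), and Mcl1, a survival factor of the Bcl2 family (-0.27). For Ppara 2 dimmer probe sets differed by -0.03 and 0.06, and for Grb14 a dimmer one differed by 0.07. None of the 10 passed.

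Myelin genes read lower at day 150 in most cases, by small amounts. Of 21 measured members of the myelin list 18 were lower, against 50.4% of all genes, and the median difference was -0.11 log2 against 0 for all genes. Of these, 7 were lower at an unadjusted p under 0.05 (1.81% of all genes) and 4 had all day 150 arrays below all day 80 arrays (1.29% of all genes). In whole tissue, fewer oligodendrocytes and less RNA per oligodendrocyte cannot be told apart. The 7 were Mog, Mal, Ppp1r14a (-0.40), Cldn11 (-0.32), Ugt8a (-0.27), Mobp (-0.24) and Tspan2 (-0.22), and 0 of the 21 passed the adjusted threshold.

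Single members ranged from -0.47 to 0.20. Ugt8a, the enzyme that makes the galactolipids of myelin, read 8.54, 8.39, 8.34 and 8.52 at day 80 and 8.18, 8.16, 8.26 and 8.11 at day 150, and its second probe set was lower by 0.37 (exact permutation p = 0.0286). Both probe sets separated the ages without overlap, but they were read on the same arrays, so the second is not a separate test. The difference of the first was -0.16 without the 3 arrays that stood apart. Mobp, a structural protein of the major dense line, was lower on all 5 of its probe sets, by 0.18 to 0.29. Mbp, which encodes myelin basic protein, did not follow. It read 12.73 to 12.96 at day 80 and 12.75 to 12.87 at day 150, a difference that rounds to 0 with a 95% confidence interval of -0.14 to 0.14, and its sign turned under 8 alternative settings. Mag, an adhesion protein of the inner myelin layer, and Ermn differed by -0.06 and 0.00, and Cnp, which is made early in myelination, by -0.11. Without the 3 arrays Mag differed by 0.14 and Cnp by -0.02. Of the transcription factors in the list, Nkx6-2 differed by -0.12, Olig1 by -0.06, Olig2 by -0.04, Sox10 by 0.08 and Myrf, which turns on myelin genes, by 0.20, and without the 3 arrays these were 0.01, 0.01, 0.04, 0.31 and 0.46.

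The size of the myelin difference depended on the arrays named above. The mean of the list on each array was 0.00, 0.01, 0.01 and 0.14 above the mean over 24 arrays for day 80 arrays 1 to 4, and 0.01, 0.10, 0.07 and 0.18 below it for day 150 arrays 1 to 4 (-0.01, -0.10, -0.07 and -0.18). Array 4 was thus the highest of day 80 and the lowest of day 150. Without day 80 array 4 the list median was -0.07, on the arrays with high Xist alone it was -0.07 with 15 of 21 members lower, and without both low-Xist arrays of day 80 and day 150 array 4 together it was -0.03 with 12 of 21 lower. Not every member shared this. Without those 3 arrays Mog, Cldn11 and Mobp differed by -0.55, -0.36 and -0.26, more than with all arrays. Mal, Ppp1r14a and Ugt8a differed by -0.28, -0.32 and -0.16, less than with all arrays, and Tspan2 by -0.22.

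**Figure D3:**
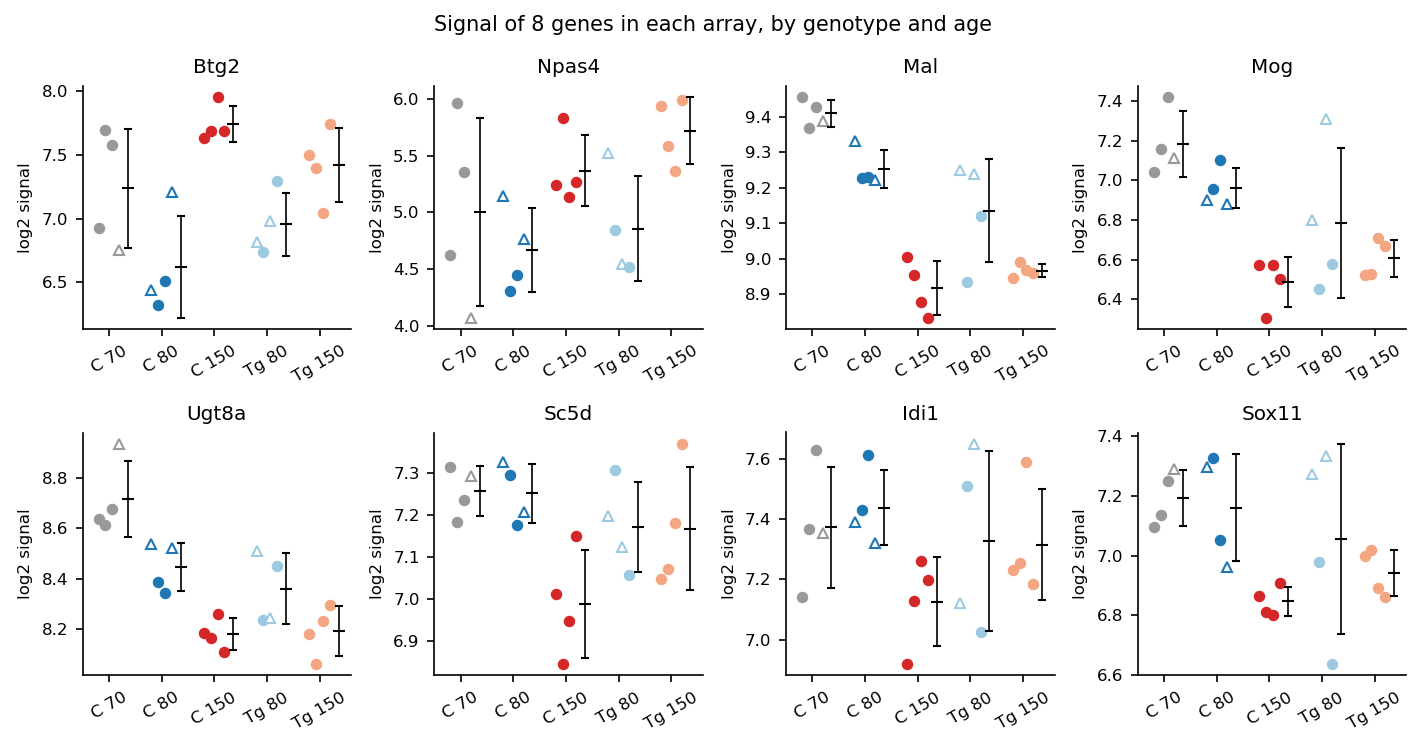
Log2 signal of 8 genes on each array of control (C) and TgCRND8 (Tg) mice by age in days; circles are single arrays, open triangles arrays with low Xist, and the black bar the mean with 1 SD. Control day 150 arrays lie above all control day 80 arrays for Btg2 and below all of them for Mal, Mog, Ugt8a, Sc5d, Idi1 and Sox11.

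The day 70 controls, which share the day 150 arrays with the comparison above, placed the myelin genes on a longer step. Mean signal at days 70, 80 and 150 was 9.41, 9.25 and 8.92 for Mal, 7.18, 6.96 and 6.49 for Mog, 8.72, 8.45 and 8.18 for Ugt8a, and 9.21, 9.02 and 8.79 for Tspan2, a tetraspanin of oligodendrocytes. Day 80 lay between the others for each. Between days 70 and 150 exactly these 4 genes passed out of 18193 (0.022%), and all fell: Mog by 0.70 and Tspan2 by 0.41 (adjusted p = 0.0409 each), and Ugt8a by 0.54 and Mal by 0.49 (adjusted p = 0.0165 each, limma with Benjamini-Hochberg adjustment). This call was fragile. Leaving out 1 of the 8 arrays of days 70 and 150 left 0 to 3 genes past the threshold, with 0 without day 70 array 4, day 150 array 2 or day 150 array 4, 1 without day 70 array 1 or day 150 array 3, and 2 without day 70 array 3. On the arrays with high Xist alone 1 gene passed, Mog, which fell by 0.72 (adjusted p = 0.00575 by limma). In the whole myelin list the median difference was -0.14 from day 70 to day 80 and -0.11 from day 80 to day 150. The shorter interval thus held the larger median difference.

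In the list of oligodendrocyte precursors, of 13 measured members of that list 8 were lower at day 150, with a median of -0.04 that became 0.02 when the probe sets of a gene were averaged. In 2 of the 13, Gpr17 and the transcription factor Sox6 (-0.13), all day 150 arrays lay below all day 80 arrays (1.29% of all genes). Gpr17, a receptor of precursors that are about to mature, read 6.46, 6.28, 6.05 and 6.38 at day 80 and 5.90, 5.90, 5.89 and 6.0 at day 150, a difference of -0.37 (standard error 0.122, adjusted p = 0.9996 by limma). Its day 70 mean was 6.55, and on the arrays with high Xist alone the difference was -0.24. The precursor markers Pdgfra and Cspg4 differed by -0.06 and 0.04, and by -0.10 and -0.07 on those arrays.

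Cholesterol synthesis was the list with the lowest median of all 46. Of 20 measured members 17 were lower at day 150, with a median of -0.17 log2, 9 of them at an unadjusted p under 0.05 (1.81% of all genes) and 8 with all day 150 arrays below all day 80 arrays (1.29% of all genes). The difference of every member was between -0.31 and 0.06, and 0 passed the adjusted threshold. The genes are known to share 1 regulator and so do not count as independent.

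Lower members were found in the early and in the sterol part of the pathway. In its early part, Hmgcs1, the synthase ahead of HMG-CoA reductase, was lower by 0.20, Mvk, mevalonate kinase, by 0.15, Mvd, mevalonate diphosphate decarboxylase, by 0.27, and Idi1, the isomerase that makes the second 5-carbon unit, by 0.31. Idi1 read 7.39, 7.43, 7.61 and 7.32 at day 80 and 6.92, 7.13, 7.26 and 7.20 at day 150. The groups did not overlap, although day 80 array 4 and day 150 array 3 came close. In the sterol part, Sqle, which commits squalene to sterols, was lower by 0.19, Cyp51, the lanosterol demethylase, by 0.22, Msmo1, which removes methyl groups, by 0.23, Hsd17b7 by 0.16, and Dhcr7, which makes cholesterol in the last step, by 0.30. Sc5d, the desaturase one step earlier, read 7.33, 7.30, 7.18 and 7.21 at day 80 and 7.01, 6.84, 6.95 and 7.15 at day 150, lower by 0.26 (standard error 0.078, unadjusted p = 0.00237 by limma) with no overlap. Of its 2 other probe sets 1 was lower by 0.20 without overlap and 1 differed by -0.03. Insig1, which holds SREBP in the endoplasmic reticulum and is itself a target of it, was lower by 0.21, and Stard4, a sterol carrier, by 0.18. The 3 members that were not lower were Pmvk, phosphomevalonate kinase (0.02), Lss, which makes lanosterol (0.01), and Srebf2, the gene of the regulator itself (0.06). On the arrays with high Xist alone Hmgcs1 differed by -0.09, Mvk by -0.10, Sqle by -0.12, Dhcr7 by -0.18 and Srebf2 by 0.10. Dimmer probe sets of the same genes did not all follow. They differed by -0.08, -0.01, -0.15 and 0.02 for Hmgcs1, by -0.52 and 0.01 for Cyp51, and by -0.23, 0.01 and 0.11 for Hsd17b7. Those of Mvk, Mvd, Idi1 and Msmo1 differed by -0.12, -0.31, -0.40 and -0.01, and those of Stard4 by -0.10 and -0.07.

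The promoters of 3 members are shown because most of the list read lower and because a CCAAT box is known to help SREBP act. They are windows of RefSeq on GRCm38.p6, from 250 bases before to 50 after the start site: Hmgcs1 at chr13:119690101-119690400, plus strand, Idi1 at chr13:8885356-8885655, plus strand, and Sc5d at chr9:42264251-42264550, minus strand. Capitals mark CCAAT, which reads ATTGG on the other strand, and in Hmgcs1 also the sterol element TCACNCCAC.
Hmgcs1 promoter: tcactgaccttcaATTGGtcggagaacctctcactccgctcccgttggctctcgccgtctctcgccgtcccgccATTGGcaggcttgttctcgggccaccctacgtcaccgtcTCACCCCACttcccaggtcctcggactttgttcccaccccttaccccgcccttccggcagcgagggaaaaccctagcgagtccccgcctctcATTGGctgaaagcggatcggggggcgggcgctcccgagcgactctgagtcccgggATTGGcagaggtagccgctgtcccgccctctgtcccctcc
Idi1 promoter: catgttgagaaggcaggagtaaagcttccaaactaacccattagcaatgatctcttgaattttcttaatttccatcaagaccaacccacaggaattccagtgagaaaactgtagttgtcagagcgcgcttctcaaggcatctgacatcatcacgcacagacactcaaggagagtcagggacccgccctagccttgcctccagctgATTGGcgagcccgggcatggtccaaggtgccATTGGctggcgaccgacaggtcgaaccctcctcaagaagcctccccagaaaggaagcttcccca
Sc5d promoter: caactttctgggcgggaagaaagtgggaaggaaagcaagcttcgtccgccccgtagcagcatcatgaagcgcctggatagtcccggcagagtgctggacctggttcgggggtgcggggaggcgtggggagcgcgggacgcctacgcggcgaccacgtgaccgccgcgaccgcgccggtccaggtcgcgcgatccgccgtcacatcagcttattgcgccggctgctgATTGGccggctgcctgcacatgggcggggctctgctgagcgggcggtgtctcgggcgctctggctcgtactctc
A CCAAT box on either strand was found in 15 of the 16 cholesterol list members that have a window (93.8%), Dhcr7 being the one without, and in 37.9% of all 27025 windows. The myelin list had it in 7 of 16 windows (43.8%). The sterol element was found only in Hmgcs1 among the 16 (6.25%), against 1.22% of all windows, and overlapped no CCAAT box. Pmvk, Lss and Srebf2, which were not lower at day 150, each had a CCAAT box, and Dhcr7, without one, was lower by 0.30. Whether the matches are bound was not measured.

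The cholesterol list kept its sign on every subset of arrays tried. On each array the mean of the list was 0.09, -0.06, -0.02 and 0.00 at day 80 and -0.13, -0.22, -0.15 and -0.13 at day 150, so the 2 groups did not overlap. Leaving out 1 array at a time gave medians of -0.21 to -0.15. On the arrays with high Xist alone the median was -0.12 with 15 of 20 members lower and 3 at an unadjusted p under 0.05, and without the 2 low-Xist arrays and day 150 array 4 it was -0.11 with 16 lower. The day 70 controls had a list mean of 0.02 ± 0.07 (SD, n = 4), close to the 0.00 ± 0.06 of day 80, and day 150 stood at -0.16 ± 0.04. Elovl6, a fatty acid elongase that SREBP1 controls and that is not in the list, was lower by 0.25, with overlap. Its dimmer probe sets went both ways, with differences of -0.15 and 0.25.

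In TgCRND8 mice the same list gave a different picture. Between their own days 80 and 150, arrays that share no mouse with the controls, 10 of 20 members were higher and 10 lower, with a median of 0.01 against -0.17 in controls. The steps were compared gene by gene by an interaction term, which uses the control arrays again. The TgCRND8 step exceeded the control step for 19 of 20 members (49.5% of all genes) and at an unadjusted p under 0.05 for 5 (5.51% of all genes in either direction), with 0 past the adjusted threshold. Msmo1 had the largest such difference of those named, 0.46 (unadjusted p = 0.00205, adjusted p = 0.842 by limma). The TgCRND8 arrays of day 80 were spread widely, with list means from -0.13 to 0.13.

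**Figure D4:**
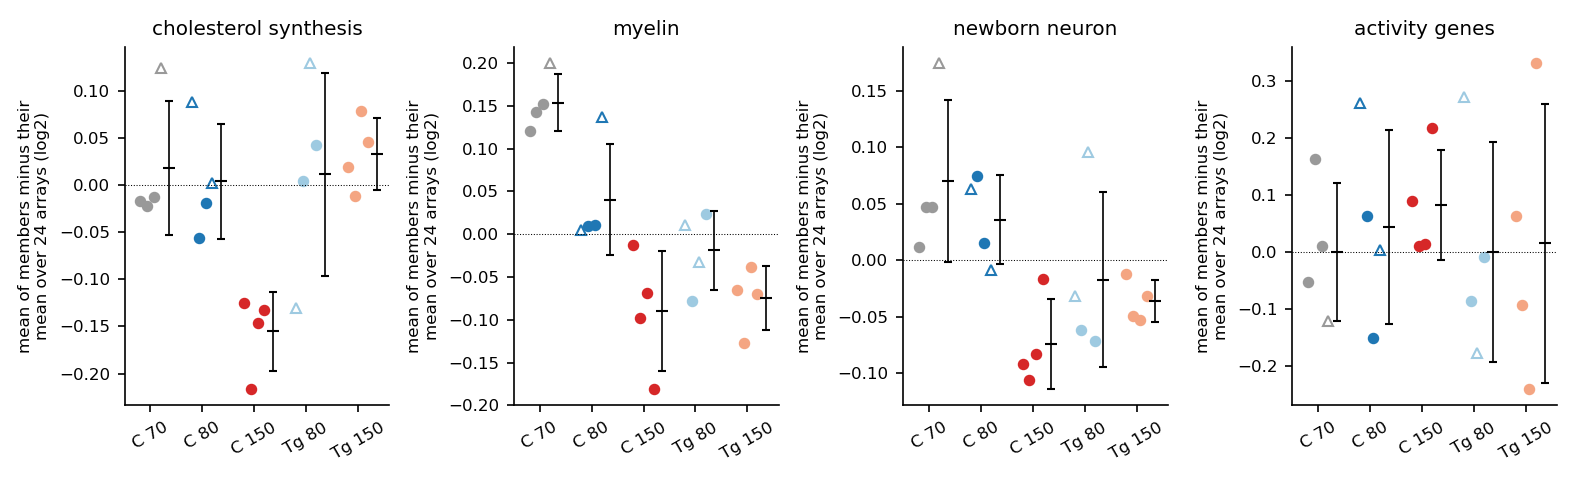
Mean of the members of 4 gene lists on each array, each gene taken relative to its mean over all 24 arrays (log2), for control (C) and TgCRND8 (Tg) mice by age in days; circles are arrays, open triangles arrays with low Xist, and the black bar the mean with 1 SD. For cholesterol synthesis the 4 control day 150 arrays lie at -0.13 to -0.22, below every other array except 1 TgCRND8 array of day 80.

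Genes of newborn neurons were lower in 16 of 19 cases (50.4% of all genes), by a median of -0.06. Of these 3 were lower at an unadjusted p under 0.05 (1.81% of all genes), and in 1 all day 150 arrays lay below all day 80 arrays (1.29% of all genes). Sox11, a transcription factor of immature neurons, read 7.29, 7.32, 7.05 and 6.96 at day 80 and 6.87, 6.81, 6.80 and 6.91 at day 150, a difference of -0.31 (standard error 0.121, adjusted p = 0.9996 by limma). The groups were separated narrowly, by day 80 array 4 and day 150 array 4, and the 5 other Sox11 probe sets differed by -0.19 to 0.01. Its partner Sox4 was lower by 0.23, the tubulin Tubb2b by 0.30 and the surface protein Cd24a by 0.36, all with overlap between the groups. Without the 3 arrays that stood apart Tubb2b was lower by 0.48 and Cd24a by 0.60. Dcx, the microtubule protein most used to count newborn neurons, was not lower: it read 5.75 to 6.25 at day 80 and 5.81 to 6.14 at day 150, with a difference of 0.05 whose sign turned when single arrays were left out and which was 0.19 without those 3. Gap43, a protein of growing axons that is not in the list, was lower by 0.19 with no overlap. The list median was -0.11 without day 80 array 4 and -0.05 without day 80 array 1. With 1 array left out 13 to 18 of 19 members were lower. Without the 3 arrays that stood apart the median was -0.14 with 14 of 19 members lower. With Xist as covariate Sox11, Sox4 and Tubb2b were lower by less, with differences of -0.21, -0.16 and -0.19.

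Microglia and astrocytes, which respond strongly in the transgenic line, had list medians near 0 in controls. In the activated microglia list, 11 of 25 genes read higher at day 150 and 14 read lower (median -0.01), and 0 had an unadjusted p under 0.05. Of 28 genes of reactive astrocytes 11 were higher and 17 lower, also with a median of -0.01 and none at that level. Cst7, cystatin F of activated microglia, read 3.21, 2.96, 3.28 and 3.06 in controls of day 80 and 2.90, 3.04, 2.98 and 2.91 in those of day 150, with a difference of -0.17. These values lie near the lower quartile of the arrays, 3.18 to 3.27. Gfap, the astrocyte filament, differed by -0.18 and Tyrobp, a signalling adaptor of microglia, by -0.31, the groups overlapping for both. On the arrays with high Xist alone Gfap differed by -0.12 and Tyrobp by -0.44. Of 21 genes of resting microglia 13 were lower, with a median of -0.06, and Siglech, a microglial lectin, was lower by 0.28 with overlap.

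The same step in TgCRND8 mice gave 4 genes past the threshold (0.022%), all higher at day 150, and 1230 at an unadjusted p under 0.05 (6.76%). On the arrays with high Xist alone, which leave 2 TgCRND8 arrays at day 80, 322 genes passed, 146 higher and 176 lower. The 4 were Cst7 (1.36), Gfap (0.91), Ptprc, a surface phosphatase of blood-derived and microglial cells (0.65), and Slc14a1, a urea transporter (0.50). Cst7 rose from 2.98, 3.35, 3.16 and 3.27 to 4.95, 4.24, 4.54 and 4.48 (adjusted p = 1.92e-08 by limma). No day 150 array overlapped the day 80 arrays. Of all genes 52.1% were lower at day 150 in this step. Activated microglia genes were higher in 24 of 25 cases, with a median of 0.30, and 2 of them passed. The count of 4 became 7 without TgCRND8 day 80 array 1 or 3, 2 without array 2 or 4 of that group and 1 without TgCRND8 day 150 array 4. The difference between the genotypes' steps passed for 1 gene, Cst7, at 1.53 (standard error 0.149, adjusted p = 2.66e-06, 0.0055% of genes), and Gfap, at 1.09, had an adjusted p of 0.0896 by limma. For Tyrobp it was 1.23, for Ptprc 0.78 and for Teddm2 -0.61, with adjusted p of 0.215, 0.207 and 0.207 by limma.

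Sex-linked genes carried the largest single difference. Xist was higher at day 150 by 3.27 with an SD of 3.60 at day 80 and 0.11 at day 150, and did not pass (adjusted p = 0.9996 by limma). Eif2s3x and Ddx3x, which escape X inactivation, were higher by 0.39 and 0.24, and read 8.85 and 8.96 and 10.23 and 10.09 on day 80 arrays 1 and 4 against at least 9.48 and 10.45 on the other 6 arrays. Of the Y-linked genes, Eif2s3y was lower by 0.94, Uty by 0.52 and Kdm5d by 0.19. On the arrays with high Xist alone these became -0.07, 0.17 and 0.16, Xist 0.16, Erdr1 0.10, Eif2s3x 0.08 and Ddx3x 0.07. Between these 6 arrays 1 gene passed, Btg2, and 956 had an unadjusted p under 0.05.

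The remaining lists sat near 0. Of the 46 lists 44 had a median within 0.10 log2 of 0 and 35 within 0.05, and 29 had no member at an unadjusted p under 0.05. Markers of excitatory, inhibitory and striatal neurons had medians of 0.01, -0.03 and 0.03. Synaptic release genes stood at 0.00, oxidative phosphorylation at 0.00, the proteasome at -0.01 and genes of APP processing at 0.00. App itself read 11.91 at both ages. Proliferation genes had a median of 0.02.

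**Figure D5:**
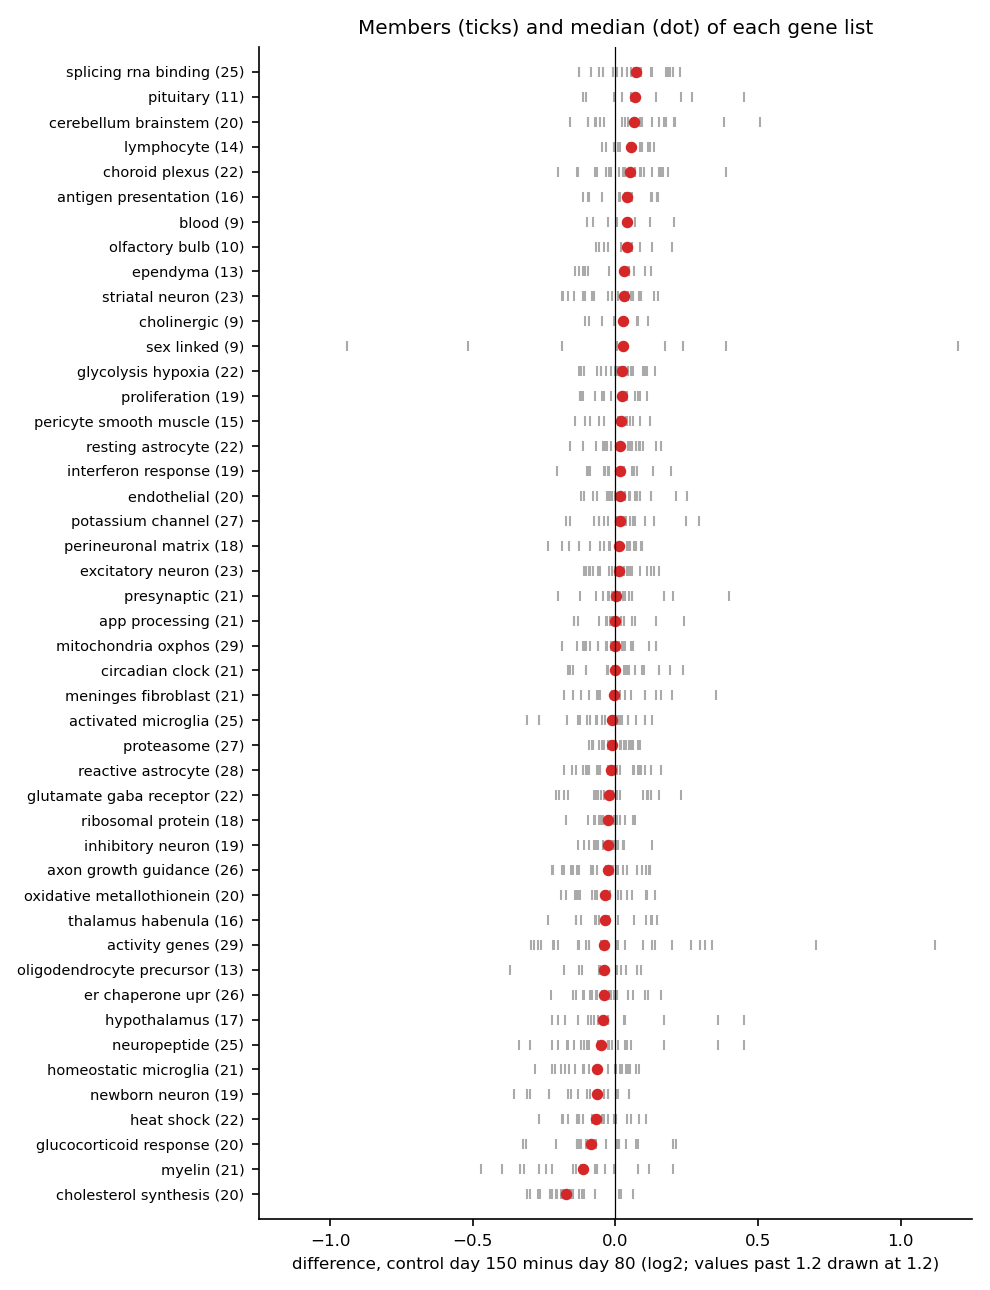
Difference between control day 150 and day 80 (log2) for the measured members of 46 gene lists, sorted by median; grey ticks are genes, red dots list medians and the number in brackets the measured members. Values past 1.2 are drawn at 1.2, which applies to Xist. Cholesterol synthesis (-0.17) and myelin (-0.11) lie lowest and splicing and RNA binding (0.07) highest.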

How the data were processed

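Per the labels' protocols, forebrain RNA was isolated with TRIzol, cleaned on columns, labelled with biotin and hybridised to Affymetrix mouse arrays. The authors deposited 1 table of log2 signals; the table's units were read from its values, and the method by which the authors summarised and normalized them is not given in any source here, so scale and centring stay unknown. Array medians were 4.29 to 4.36 on the 8 arrays. All columns were mapped through the labels and 0 were left unused. Of 45037 probe sets other than array controls, 34945 carried 1 gene symbol, 932 several and 9160 none in GEO's platform annotation.

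All 24 arrays entered 1 limma fit of 6 group means (18 residual and 7.47 prior degrees of freedom). A gene passed at an adjusted p under 0.05, and "unadjusted p" is limma's before adjustment. No normalization was added. Within groups arrays correlated at 0.992 to 0.997, and 0 columns were identical. Replicates are different mice. The pipeline was tested on simulated data.

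The comparison and all 46 lists (913 of 1005 entries measured, 854 genes) were chosen with earlier results of these data known. Named genes are the 10 of smallest p in each direction, the sex-linked list, the first 2 members of lists and the 5 of smallest p in the TgCRND8 and interaction tests; the other genes named, and the comparison of day 150 with day 70, were chosen after their values were seen. Alternatives were median centring of arrays, quantile normalization, a test without the dimmest 40% of genes, other uses of probe sets, trend and robust settings, array weights, a replicate block, Xist as covariate, arrays with high Xist (above 6.46, midway between the extremes), only the arrays compared, an adjusted p under 0.10 and leaving out each array; leaving out 3 arrays together was added after the data were seen. Replicate numbers were not taken as pairs in the main fit. This choice does not rest on the deviations of same-numbered arrays, which do not show that pairing can be ignored. Of 60 such pairs 35 correlated above 0.1, with a median of 0.14 and a range of -0.37 to 0.61. Between control days 80 and 150 the same-numbered pairs 1 to 4 correlated at 0.23, -0.10, 0.16 and -0.25. With the replicate block the unadjusted count of the control comparison was 817 against 620, and 0 genes passed. The fits used limma 3.58.1 in R 4.3.3. Figures were drawn in Python 3.11.15 with matplotlib 3.10.9.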

Additional observations from a re-analysis of the deposited data

Results flagged for a closer look

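Of 164 groups of 4 control arrays examined, 9 held an array whose distance from the nearest other array exceeded Dixon's 95% limit for 4 values, a mark that chance gives in about 1 in 20 groups. Day 150 array 4 was the array in 6 of the 9: Pcp2 read 6.27 there against 3.91 to 4.17 on the others, Grb14 6.98 against 6.86 to 6.87, Gpr17 6.004 against 5.89 to 5.90, Dusp6 7.84 against 7.57 to 7.58, Hnrnpu 10.12 against 10.03 to 10.04, and the mean of the cerebellum and brainstem list 0.28 against -0.02 to 0.01. On day 150 array 2 Dhdds read 6.65 against 6.75 to 6.77. On day 80 array 1 Mal read 9.33 against 9.22 to 9.23, and on day 80 array 4 the mean of the myelin list was 0.14 against 0.00 to 0.01.

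The step from day 80 to day 150 differed between the genotypes for Cst7, by 1.53 log2 in a test of the difference itself (adjusted p = 2.66e-06 by limma). In controls Cst7 read 2.90 to 3.28 on all 8 arrays.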

How the results depend on the processing

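In the control comparison 0 genes passed, and 0 passed under quantile normalization, median centring, the probe set and filter settings, trend and robust settings, Xist as covariate, only the arrays compared and the 3 arrays left out together; 1, Btg2, passed with array weights, on the arrays with high Xist and at an adjusted p under 0.10, and 0 to 1 with 1 array left out. The replicate block left 0. The unadjusted count of 620 ran up to 1055 without the 3 arrays. Over 72 named genes and 1499 combinations of gene and setting, 1474 kept direction and side of the threshold, 4 crossed it, all Btg2, and 21 turned sign. The turns were Mbp (0.0148 by quantile normalization, 0.00197 with the mean of probe sets, 0.00297 with array weights, 0.0536 on high-Xist arrays, 0.0727 without the 3 arrays, and -0.0297 to 0.0455 with 1 array left out), Dcx (-0.0101 to 0.161 with 1 array left out), Pcp2 (-0.0515 without day 150 array 4, -0.0515 to 0.734 over single arrays), Gabra6 (-0.0327 without that array, -0.0327 to 0.576 over single arrays, -0.00123 without the 3 arrays), and the Y-linked genes, with Xist as covariate Eif2s3y 0.18, Kdm5d 0.19 and Uty 0.21, on high-Xist arrays Kdm5d 0.16 and Uty 0.17, and without the 3 arrays 0.15 and 0.19. The cause was not tested.

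The 4 calls of the TgCRND8 step became 1 without the dimmest genes, 2 with the mean of probe sets, 2 with array weights, 9 with the replicate block, 1 with only the arrays compared, 14 at an adjusted p under 0.10, 322 (146 higher, 176 lower) on high-Xist arrays and 1 to 7 with 1 array left out. The 1 call of the difference between steps became 0 without the dimmest genes, which removes Cst7 itself, 2 with the mean of probe sets, 2 with all probe sets, 3 with the replicate block, 2 with only the arrays compared, 2 at an adjusted p under 0.10, 16 (8 in each direction) on high-Xist arrays and 1 to 3 with 1 array left out. Control day 80 keeps 2 arrays there and TgCRND8 day 80 also 2. Array number limits precision, and dim genes such as Cst7 in controls have sizes that are uncertain.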

Other observations

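Genes of splicing and RNA binding had the highest list median in the control comparison, 0.07 log2, with 19 of 25 higher at day 150 (49.6% of all genes). Hnrnpu, a nuclear RNA-binding protein, read 10.02, 10.02, 9.73 and 9.69 at day 80 and 10.04, 10.03, 10.03 and 10.12 at day 150, higher by 0.19 with the groups separated by a narrow margin, while its 4 other probe sets differed by -0.05, 0.07, 0.21 and 0.08. Srsf5, a splicing factor, was higher by 0.23, with overlap, and by 0.35 on the arrays with high Xist alone. Genes of the glucocorticoid response had a median of -0.08 with 13 of 20 lower, led by the cell cycle inhibitor Cdkn1a (-0.32) and the kinase Sgk1 (-0.31), while Fkbp5, a sensitive target of the receptor, differed by 0.07. In the heat shock list 16 of 22 genes read lower, against 50.4% of all genes, with a median of -0.07. Cryab (-0.27), a small chaperone that oligodendrocytes and astrocytes make, led them. The list mean was 0.27 on day 80 array 1, against -0.0045, -0.05 and -0.07 on day 80 arrays 2 to 4. With 1 array left out the median ran from -0.11 to 0.01, with 9 to 19 members lower. It lay nearest 0 without day 80 array 1. Neuropeptide genes were lower in 18 of 25 cases with a median of -0.05, none at an unadjusted p under 0.05 by limma, against 3.41% of all genes. Genes of meninges and fibroblasts had a median of -0.0049, with 10 higher and 11 lower. Among them Col6a1, a collagen gene, was higher by 0.35, its groups overlapping by 1 array, and by 0.54 without the 3 arrays that stood apart, while Col1a1 and Col1a2 differed by -0.12 and -0.06.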
